A study of Saccharomyces cerevisiae with 8 samples.

Results

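Ribosome occupancy was examined at the 6 leucine codons, the rows of a 61-codon table that encode leucine in the standard genetic code. These are the 4 codons of the four-codon box, which share C as their first base (CTA, CTC, CTG and CTT), and the 2 codons of the two-codon box, which share T (TTA and TTG). They were chosen by the amino acid they encode and not by their values, though with earlier results of these data known. The table covers 8 ribosome profiling libraries of Saccharomyces cerevisiae in 4 groups of 2 replicates. The eEF3d cells (strain yCW35) carry YEF3, the gene for eEF3, under the GAL1 promoter and with an auxin degron tag, lack the paralog HEF3 and express OsTIR1, the receptor that auxin-driven degradation needs. Cultures of both strains were moved from galactose and raffinose to glucose, which shuts off the GAL1 promoter, and eEF3 was depleted by this shift together with auxin. Cells were harvested after 8 h in glucose, and the WT cultures had been started at a lower density. WT cells were BY4741, which has neither the degron nor the HEF3 deletion, so eEF3 loss cannot be told apart from the other differences between these strains. Both strains have the his3, leu2, met15 and ura3 mutations of the BY4741 background, and yCW35 also carries HIS3 and URA3 markers. In each strain, libraries were made with cycloheximide and tigecycline (CHX + TIG), analyzed as 21 nt ribosome-protected fragments (RPFs), or with cycloheximide and anisomycin (CHX + ANS), analyzed as 28 nt RPFs.

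eEF3 is an ATPase of fungi that acts with eEF2 late in translocation, when the spent tRNA leaves the ribosome. In such libraries, 21 nt RPFs come from ribosomes whose A site is empty and waits for aminoacyl-tRNA, and 28 nt RPFs come from ribosomes whose A site is filled and that have not yet translocated. The value for a codon is a pause score, the ratio of the footprint density with that codon in the A site to the density over the coding sequence, so that values above 1 mark codons with more ribosomes than the average position of the same genes. Read numbers cannot be recovered from such ratios. The depth behind each value is therefore unknown, and the error comes only from the replicates. For CHX + TIG libraries, the paper reports a much smaller share of the shorter footprints in eEF3d than in WT cells. Scores of the strains in that class may thus rest on unequal read numbers, which was not tested. Pooled over all 61 codons, replicates had an SD on the log2 scale of 0.209 in eEF3d and 0.207 in WT cells in 21 nt RPFs, and 0.0852 in eEF3d and 0.0778 in WT cells in 28 nt RPFs. Of the WT libraries, replicate 1 of CHX + TIG and both of CHX + ANS were taken over from a previous study, so in 28 nt RPFs the strain and the origin of the libraries cannot be told apart.

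The leucine codons fall into a pair of boxes that are read by different tRNAs. The R64 genome annotation holds 21 nuclear leucine tRNA genes with 4 anticodons, and all copies of an anticodon have the same spliced sequence. The spliced gene sequence of each anticodon is shown in full because the boxes differ in what reads them. The capitals mark the anticodon, at positions 35 to 37.

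Anticodon CAA: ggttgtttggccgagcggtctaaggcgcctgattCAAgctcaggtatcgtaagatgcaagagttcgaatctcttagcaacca
Anticodon TAA: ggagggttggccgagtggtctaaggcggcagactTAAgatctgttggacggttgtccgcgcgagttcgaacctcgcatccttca
Anticodon TAG: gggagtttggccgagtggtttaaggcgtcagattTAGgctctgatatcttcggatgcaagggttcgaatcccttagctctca
Anticodon GAG: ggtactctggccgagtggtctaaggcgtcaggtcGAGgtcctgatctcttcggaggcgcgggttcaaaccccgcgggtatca

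The 10 genes with anticodon CAA pair with TTG and all hold an intron, for example YNCA0005W at chrI:181141-181254 on the forward strand, whose coordinates include the intron. The 7 genes with anticodon TAA pair with TTA and hold none, for example YNCB0001W at chrII:9583-9666 on the forward strand. The 3 genes with anticodon TAG pair with CTA and hold an intron, for example YNCJ0029W at chrX:617919-618019 on the forward strand, again with its intron. The single gene with anticodon GAG pairs with CTC and holds no intron (YNCG0028W, chrVII:700675-700756, forward strand). Thus 17 genes serve the two-codon box and 4 the four-codon box, and neither CTG nor CTT has an anticodon complementary at all positions. In yeast, the tRNA with anticodon TAG is known to read the whole four-codon box by wobble at the third base, and the tRNA with anticodon GAG reads CTC and CTT. The tRNAs with anticodons GAG and TAG share 62 of 82 positions, those with CAA and TAG 64, and those with CAA and GAG 51.

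Codon use also differed between the boxes. Over 6002 nuclear coding sequences of the R64 annotation, leucine made up 9.50% of codons, of which 55.7% were of the two-codon box and 44.3% of the four-codon box. TTG (26.5 per 1000 codons) and TTA (26.4) ranked 8 and 9 of 61 in frequency. CTA (13.5), CTT (12.4) and CTG (10.7) ranked 34, 37 and 43, and CTC, the leucine codon with the single-copy matching tRNA gene, ranked 56 with 5.56 per 1000.

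Among 21 nt RPFs, 3 codons of the four-codon box fell in eEF3d cells (CTC, CTG and CTT) and 1 codon of the two-codon box rose (TTA), whereas CTA and TTG did not pass the test. CTC, the rarest leucine codon, had pause scores of 0.851 and 1.05 in eEF3d cells and 1.92 and 1.71 in WT cells. CTG had 1.77 and 2.45 in eEF3d cells and 3.55 and 3.25 in WT cells. CTT had 1.04 and 1.03 in eEF3d cells and 1.57 and 1.30 in WT cells. At these 3 codons every eEF3d library lay below both WT libraries. CTA, the codon that pairs with anticodon TAG, had 0.923 and 0.974 in eEF3d cells and 1.35 and 1.16 in WT cells, again without overlap. TTA, read by the tRNA with anticodon TAA, was the opposite case, with 1.21 and 1.45 in eEF3d cells and 0.947 and 0.875 in WT cells. TTG had 1.19 and 1.65 in eEF3d cells and 1.49 and 1.22 in WT cells, so that these groups overlapped. Libraries of the strains did not overlap at 5 of the 6 leucine codons, against 50 of all 61 codons (82.0%).

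**Figure D1:**
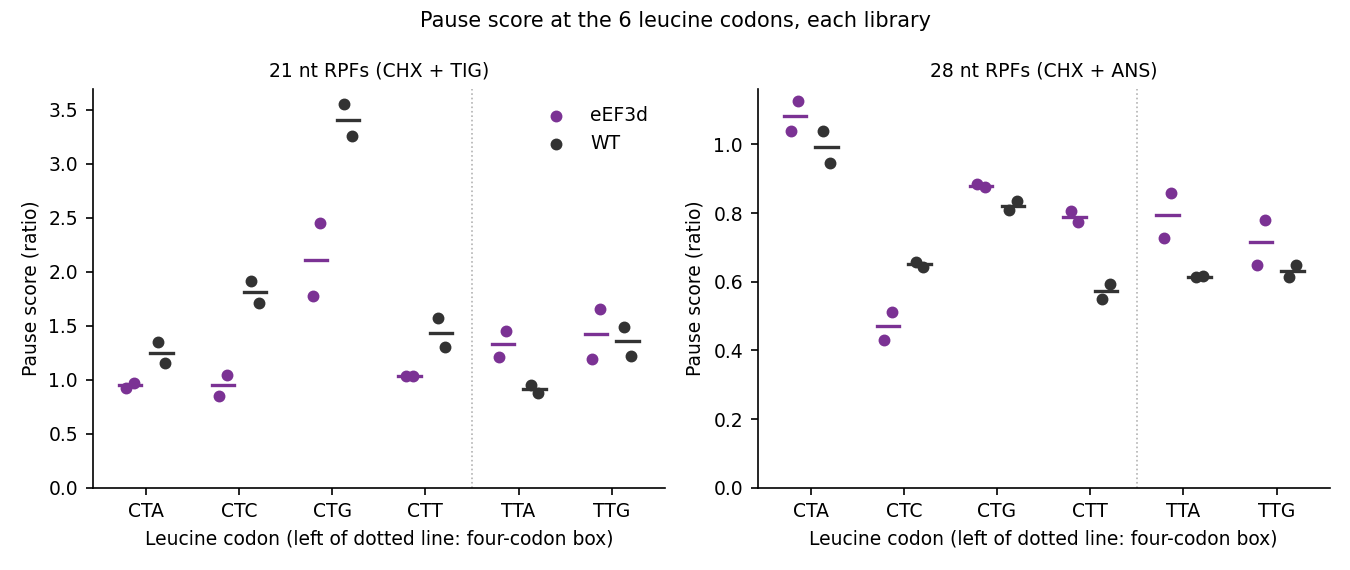
Pause score (ratio, linear axis from 0) at each leucine codon in 21 nt RPFs (left panel) and 28 nt RPFs (right panel). Points are libraries, eEF3d in purple and WT in dark gray, and bars are means of 2 replicates. In 21 nt RPFs, WT points are above eEF3d points at the 4 codons left of the dotted line and below them at TTA.

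The changes were tested on log2 pause scores with limma, fitted over all 61 codons with Benjamini-Hochberg adjustment and a threshold of 0.05 on the adjusted p. Of the 6 leucine codons, 1 rose and 3 fell in eEF3d cells, and of all 61 codons 21 rose and 17 fell (62.3% called). In limma, CTC fell by 0.94 on the log2 scale (adjusted p = 0.00011), CTG by 0.71 (adjusted p = 0.0027) and CTT by 0.47 (adjusted p = 0.044), whereas TTA rose by 0.54 (adjusted p = 0.021). The standard error was 0.208 for every codon, because limma used 1 common SD in this class. CTA changed by -0.40, with a 95% interval of -0.81 to 0.01 (limma, adjusted p = 0.089), and TTG by 0.06, with an interval of -0.35 to 0.47 (adjusted p = 0.79). The median change was -0.43 over the leucine codons and 0.17 over all 61. Of the other 10 codons with T as the second base (of Phe, Ile, Met and Val), 7 rose and 1 fell. Of the 6 arginine codons, 1 rose and 4 fell, and of the 6 serine codons, 1 fell.

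These calls depended on single libraries. Without WT replicate 1 or without WT replicate 2, no codon of the 61 passed limma's threshold, with 20 and 27 codons at an unadjusted p under 0.05. Without eEF3d replicate 1, 21 codons were called and CTG and CTT were not among them, and without eEF3d replicate 2 neither CTT nor TTA was called. The directions of the 4 codons of the four-codon box and of TTA were kept without each of the 4 libraries, and CTC had an adjusted p of 0.109 without WT replicate 1 and 0.0624 without WT replicate 2. Scaling also mattered for the split of calls. With each library centered on its median, 12 codons rose and 20 fell, all 4 codons of the four-codon box among those that fell, CTA included, and TTA was not called. With each library divided by its mean, 30 rose and 6 fell, of the leucine codons only TTA and CTC. The median of all 61 changes was then 0.02 and 0.45, against 0.17 as deposited.

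**Figure D2:**
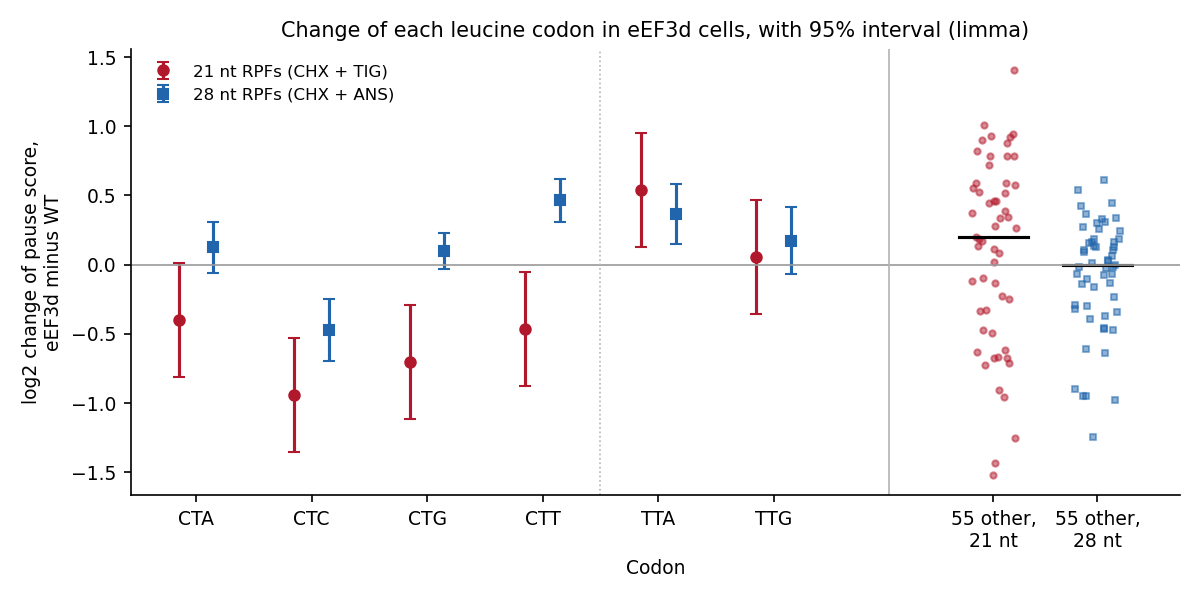
Change of the pause score in eEF3d against WT cells (log2) for each leucine codon in 21 nt RPFs (red circles) and 28 nt RPFs (blue squares), with 95% intervals from limma. On the right, the changes of the 55 other codons with their median as a black bar. The 4 codons of the four-codon box in 21 nt RPFs are between -0.94 and -0.40, and TTA is at 0.54.

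The ratio of one codon to another within a library does not depend on how the library was scaled. The box difference was taken as the mean log2 pause score of the four-codon box minus that of the two-codon box, and is described without a test. For 21 nt RPFs it was -0.13 and -0.29 in the eEF3d libraries and 0.71 and 0.72 in the WT libraries, so that the box with first base C was the lower one in eEF3d cells and the higher one in WT cells. The difference between strains was -0.93, and it lay between -1.003 and -0.85 when each library was left out in turn, and was -0.93 without the WT library of the previous study. The mean pause score of the four-codon box was 1.26 in eEF3d and 1.98 in WT cells, and that of the two-codon box was 1.38 in eEF3d and 1.13 in WT cells. Scores of the other codons also lay closer together in eEF3d cells, and the part of this in the box difference was not tested.

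Codons that share the third base showed the same order of strains. CTA over TTA was 0.763 and 0.673 in the eEF3d libraries and 1.42 and 1.32 in the WT libraries. CTG over TTG was 1.48 and 1.49 in the eEF3d libraries and 2.39 and 2.66 in the WT libraries. With A at the third base the order of the boxes was thus opposite in the strains, and with G the four-codon box was higher in both strains, by a smaller ratio in eEF3d cells. Arginine, which also has both kinds of box, had a box difference of 0.33 and 0.90 in the eEF3d libraries and 1.46 and 1.49 in the WT libraries. Serine had -0.024 and 0.19 in the eEF3d libraries and -0.15 and -0.044 in the WT libraries, where the strains differed the other way by less.

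In 28 nt RPFs CTT and TTA rose in eEF3d cells and CTC fell. CTT had 0.805 and 0.774 in eEF3d cells and 0.551 and 0.593 in WT cells. TTA had 0.728 and 0.859 in eEF3d cells and 0.613 and 0.616 in WT cells. CTC had 0.430 and 0.511 in eEF3d cells and 0.659 and 0.643 in WT cells, the only leucine codon whose eEF3d libraries both lay below WT. CTG had 0.885 and 0.875 in eEF3d cells and 0.808 and 0.834 in WT cells. TTG had 0.650 and 0.780 in eEF3d cells and 0.614 and 0.649 in WT cells. At CTG and TTG the eEF3d libraries were the higher ones, TTG by a margin smaller than the gap between its own replicates. CTA had 1.04 and 1.13 in eEF3d cells and 1.04 and 0.945 in WT cells, which overlapped on the unrounded values. The strains did not overlap at 5 of the 6 leucine codons and at 49 of all 61 codons (80.3%).

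Of the leucine codons, 2 rose and 1 fell in 28 nt RPFs in limma, and of all 61 codons 14 rose and 16 fell (49.2% called). CTT rose by 0.47 on the log2 scale (SE 0.062, adjusted p = 0.0020) and TTA by 0.36 (SE 0.087, adjusted p = 0.015), and CTC fell by 0.47 (SE 0.091, adjusted p = 0.0063). CTA (0.13, 95% interval -0.06 to 0.31), CTG (0.10, -0.03 to 0.23) and TTG (0.17, -0.07 to 0.41) did not pass (limma, adjusted p of 0.20, 0.16 and 0.18). The median change was 0.15 over the leucine codons and 0.03 over all 61. Of the other codons with T as the second base 6 rose and 1 fell, of the arginine codons 3 fell, and of the serine codons 1 fell. With each of the 4 libraries left out in turn, CTT changed by 0.41 to 0.52, TTA by 0.24 to 0.48 and CTC by -0.60 to -0.35. These fits leave 1 library in a group, so calls kept in them say little about stability. All 3 leucine calls were lost without limma's moderation of variances (adjusted p of 0.060 for CTT, 0.12 for CTC and 0.15 for TTA). CTC and TTA were also lost with a replicate block (adjusted p of 0.080 and 0.092), and CTC with a mean-variance trend (0.056). TTG changed by 0.31 without eEF3d replicate 1 and by 0.04 without eEF3d replicate 2. With each library centered on its median, 11 of the 61 codons rose and 23 fell, with the same leucine calls. Division of each library by its mean gave 26 that rose and 14 that fell, with CTA and CTG rising as well.

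The box difference in 28 nt RPFs was 0.13 and -0.05 in the eEF3d libraries and 0.28 and 0.23 in the WT libraries. The difference between strains was -0.21. Within the four-codon box only CTC had a negative change in limma (-0.47), against 0.13 for CTA, 0.10 for CTG and 0.47 for CTT. The part of CTC in the box difference was not tested. The mean of the four-codon box was 0.806 in eEF3d and 0.759 in WT cells, and that of the two-codon box 0.754 in eEF3d and 0.623 in WT cells. CTA over TTA was 1.43 and 1.31 in the eEF3d libraries and 1.70 and 1.53 in the WT libraries. CTG over TTG was 1.36 and 1.12 in the eEF3d libraries and 1.32 and 1.28 in the WT libraries, which overlapped. Arginine had a box difference of -0.14 and 0.016 in the eEF3d libraries and 0.39 and 0.26 in the WT libraries, and serine -0.42 and -0.32 in the eEF3d libraries and -0.25 and -0.13 in the WT libraries.

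The third base sorted the leucine codons differently in the 2 footprint classes. CTG was the highest leucine codon of both strains in 21 nt RPFs, with a mean of 2.11 ± 0.48 in eEF3d cells and 3.404 ± 0.21 in WT cells (SD, n = 2 each), which ranked 3 and 4 of the 61 codons. CTG over CTA was 1.92 and 2.52 in the eEF3d libraries and 2.64 and 2.81 in the WT libraries. A codon ending in G was the highest in 7 of the 8 boxes of 4 synonymous codons in eEF3d cells and in 8 of 8 in WT cells, so leucine shared this feature with other amino acids. CTA was the highest leucine codon in 28 nt RPFs instead, and CTG over CTA was 0.851 and 0.776 in the eEF3d libraries and 0.777 and 0.883 in the WT libraries. Between the codons of the two-codon box, TTG over TTA was 0.988 and 1.14 in eEF3d and 1.57 and 1.40 in WT libraries in 21 nt RPFs. The same ratio in 28 nt RPFs was 0.893 and 0.909 in eEF3d and 1.001 and 1.05 in WT libraries.

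CTC and CTT differ only in a pyrimidine at the third base, and their order was opposite in the strains in 28 nt RPFs. CTC over CTT was 0.534 and 0.660 in the eEF3d libraries and 1.20 and 1.08 in the WT libraries. For the group means this ratio was 0.596 in eEF3d and 1.14 in WT cells, and in the other 7 boxes of 4 codons the ratio of the codon ending in C to the codon ending in T lay between 0.910 and 1.11 in eEF3d cells. CTC over CTT in 21 nt RPFs was 0.822 and 1.01 in the eEF3d libraries and 1.22 and 1.32 in the WT libraries. CTG over CTC was 2.06 and 1.71 in eEF3d and 1.23 and 1.30 in WT libraries in 28 nt RPFs. The highest over the lowest codon of the four-codon box was 2.30 in eEF3d cells in this class, where the other boxes had 1.15 to 1.51.

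The order of all 6 codons was also taken from the group means. For eEF3d cells in 21 nt RPFs it ran from CTG over TTG (1.42 ± 0.32), TTA (1.33 ± 0.17), CTT (1.03) and CTC (0.949 ± 0.138) to CTA (0.949 ± 0.036), where the libraries of TTG and TTA overlapped, and likewise those of CTT and CTC and of CTC and CTA (SD, n = 2). In WT cells it ran from CTG over CTC (1.81 ± 0.14), CTT (1.44 ± 0.19), TTG (1.36 ± 0.19) and CTA (1.25 ± 0.13) to TTA (0.911 ± 0.051), where only the neighbors CTT and TTG, and TTG and CTA, overlapped. TTA was thus the lowest leucine codon in WT cells, and in eEF3d cells it stood above 3 codons of the four-codon box. For eEF3d cells in 28 nt RPFs the order was CTA (1.08 ± 0.06), CTG (0.880 ± 0.007), TTA (0.793 ± 0.092), CTT (0.790 ± 0.022), TTG (0.715 ± 0.092) and CTC (0.471 ± 0.057), with overlap between TTA and CTT and between CTT and TTG. In WT cells it was CTA (0.993 ± 0.068), CTG (0.821 ± 0.018), CTC (0.651 ± 0.011), TTG (0.632 ± 0.025), TTA (0.615 ± 0.0016) and CTT (0.572 ± 0.029), with overlap between CTC and TTG and between TTG and TTA.

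Among all codons, 5 of the 6 leucine codons lay below the median of the 61 in 28 nt RPFs in both strains. CTA was the exception, at rank 21 in eEF3d and 26 in WT cells, and CTG ranked 48 in eEF3d and 45 in WT cells. The 4 lowest codons of the 61 in WT cells were CTT, TTA, TTG and CTC, and in eEF3d cells CTC was the lowest of all and TTG, CTT and TTA ranked 57, 55 and 54. The median over the leucine codons was 0.792 in eEF3d and 0.641 in WT cells, and the median over the 55 other codons was 1.02 in eEF3d and 0.951 in WT cells. The other codons with T as the second base had medians of 1.07 in eEF3d and 0.902 in WT cells. The medians over leucine in 21 nt RPFs were 1.18 in eEF3d and 1.40 in WT cells, those over the 55 other codons 0.995 in eEF3d and 0.854 in WT cells, and those over the other codons with T as the second base 0.891 in eEF3d and 0.539 in WT cells. For scale, the arginine codon CGA was the highest of the 61 at 2.95 in eEF3d cells in 21 nt RPFs, and CGG at 7.22 in WT cells. The highest in 28 nt RPFs were the proline codon CCG at 1.72 in eEF3d cells and CGA at 2.60 in WT cells.

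The drop from 21 nt to 28 nt RPFs was tested in each strain with limma over all 8 libraries, with the caution that the classes also differ in inhibitor. In eEF3d cells 5 of the 6 leucine codons were lower in 28 nt than in 21 nt RPFs and none was higher, and of all 61 codons 4 were higher and 14 lower (29.5% called). CTG differed by -1.24 on the log2 scale (28 nt minus 21 nt; adjusted p = 1.9e-05), the most negative value of the 61, CTC by -1.01 (adjusted p = 5.5e-05), TTG by -0.98 (adjusted p = 0.00026), TTA by -0.74 (adjusted p = 0.00050) and CTT by -0.39 (adjusted p = 0.037). CTA differed by 0.19, with a 95% interval of -0.09 to 0.47 (limma, adjusted p = 0.37). The median was -0.86 over leucine and -0.03 over all 61 codons. Of the 10 other codons with T as the second base, 3 were higher and none was lower.

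In WT cells all 6 leucine codons were lower in 28 nt than in 21 nt RPFs, and of all 61 codons 25 were higher and 24 lower (80.3% called). CTG again had the most negative value of the 61, -2.05 (limma, adjusted p = 1.6e-08), followed among the leucine codons by CTC at -1.48, CTT at -1.32, TTG at -1.10, TTA at -0.57 and CTA at -0.33 (adjusted p = 0.032). The median was -1.21 over leucine and 0.08 over all 61 codons, and of the other codons with T as the second base 8 were higher and 2 lower. The CTA call in WT cells and the CTT call in eEF3d cells were lost when single libraries were left out. The CTA call was lost without any of 5 of the 8 libraries (adjusted p up to 0.21), which are all 4 CHX + ANS libraries and WT replicate 1 of the CHX + TIG libraries. The CTT call was lost without any of 6 (adjusted p up to 0.27), including all 4 eEF3d libraries. With each library divided by its mean, 33 codons were higher and 15 lower in WT cells, where neither CTA nor TTA was called, and 8 higher and 9 lower in eEF3d cells, where CTT was not called and CTA was higher.

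The changes in eEF3d cells differed between the classes at 3 leucine codons, all of the four-codon box. The interaction term in limma, the change in 28 nt minus that in 21 nt RPFs, was 0.93 for CTT (SE 0.19, adjusted p = 0.00089), 0.81 for CTG (SE 0.21, adjusted p = 0.0055) and 0.52 for CTA (SE 0.19, adjusted p = 0.030). Of all 61 codons, 12 had a positive and 19 a negative interaction (50.8% called), and the median was 0.49 over leucine and -0.14 over all 61. CTC had 0.47 (95% interval 0.04 to 0.90, adjusted p = 0.066), and its change was negative in both classes. TTA had -0.18 (-0.59 to 0.24, adjusted p = 0.50) and TTG 0.12 (-0.37 to 0.61, adjusted p = 0.69). With each of the 8 libraries left out in turn, CTT had 0.80 to 1.07. These fits leave 1 library in a group, so calls kept in them say little about stability. CTG was not called without WT replicate 1 with CHX + TIG (adjusted p = 0.056), and CTA was not called without that library or without any of the 4 CHX + ANS libraries (adjusted p up to 0.17). With each library divided by its mean, 9 codons had a positive and 24 a negative interaction, and CTA was not called (0.37, adjusted p = 0.11). CTC was called with each library centered on its median (limma, adjusted p = 0.048), with a mean-variance trend (0.049) and with a pseudocount of 0.1 (0.042).

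**Figure D3:**
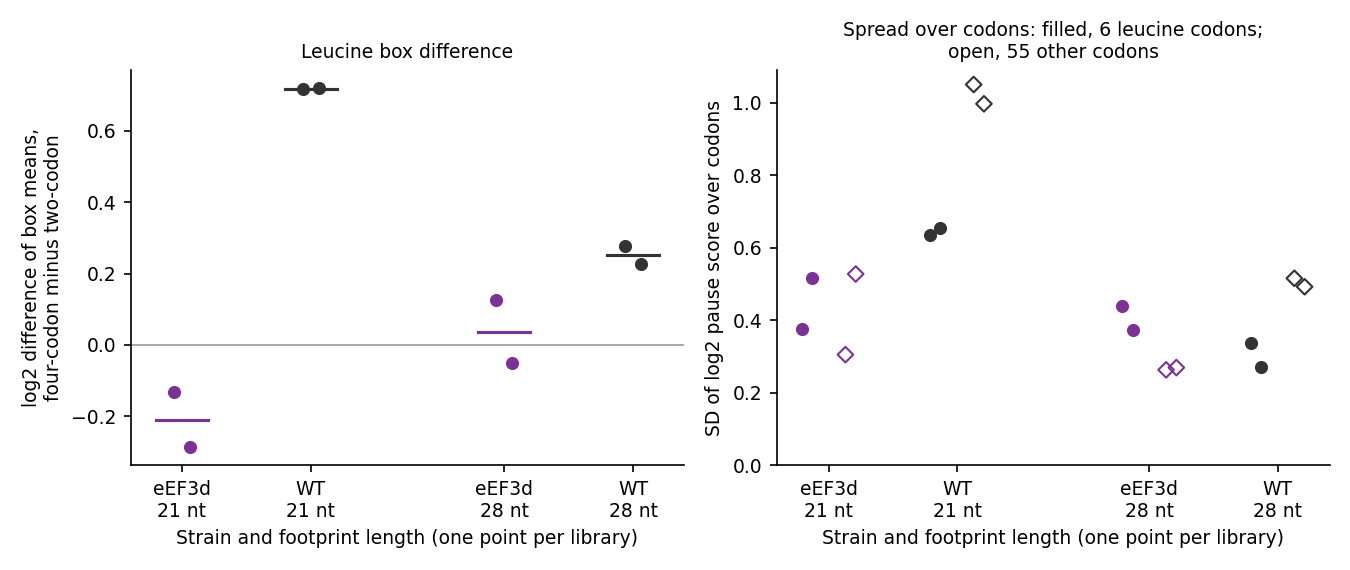
Left, box difference of leucine per library (mean log2 pause score, four-codon minus two-codon box), with the mean as a bar. Right, SD of log2 pause scores over the 6 leucine codons (filled circles) and the 55 other codons (open diamonds) per library, eEF3d in purple and WT in dark gray. The box difference in 21 nt RPFs is below 0 in both eEF3d libraries and 0.71 and 0.72 in WT, and the leucine SD in 28 nt RPFs is larger in eEF3d than in WT cells.

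The spread of pause scores was narrower in eEF3d than in WT cells over the other codons in both classes, but leucine followed this in 21 nt RPFs only. The SD of 21 nt log2 scores over the 6 leucine codons was 0.376 and 0.518 in the eEF3d libraries and 0.637 and 0.654 in the WT libraries. Over the 55 other codons it was 0.305 and 0.528 in the eEF3d libraries and 1.05 and 0.997 in the WT libraries. In 28 nt RPFs the leucine SD was 0.440 and 0.372 in the eEF3d libraries and 0.337 and 0.272 in the WT libraries, whereas that of the 55 other codons was 0.263 and 0.270 in the eEF3d libraries and 0.516 and 0.493 in the WT libraries. The wider leucine spread rested on CTC. Without it, the SD over 5 codons was 0.260 and 0.219 in the eEF3d libraries and 0.374 and 0.296 in the WT libraries. Of the 18 amino acids with more than 1 codon, 4 had a wider spread in both eEF3d libraries than in both WT libraries in 28 nt RPFs, 7 a narrower one and 7 overlapped. Of the other amino acids with 6 codons, serine overlapped (mean SD 0.227 in eEF3d and 0.222 in WT cells) and arginine was narrower (0.197 and 0.511). Among 21 nt values 1 was wider, 15 narrower, leucine among them, and 2 overlapped.

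Each leucine codon was finally set against the straight line of mean eEF3d on mean WT pause score over the 55 other codons, which had a slope of 0.280 in 21 nt and 0.229 in 28 nt RPFs. With the eEF3d libraries taken singly, the slope was 0.180 for replicate 1 and 0.380 for replicate 2 in 21 nt RPFs, and 0.224 and 0.233 in 28 nt RPFs. This is a description of the position of leucine relative to the other codons. In 21 nt RPFs TTA was 0.41, TTG 0.34 and CTG 0.31 above the line on the log2 scale, ranks 2, 3 and 4 of the 61 codons. The values of single eEF3d libraries differed widely for the two-codon box, with 0.26 and 0.54 for TTA and 0.13 and 0.50 for TTG (replicates 1 and 2), so that TTG ranked 11 with replicate 1 and 3 with replicate 2. CTG had 0.28 and 0.33, so its fall in eEF3d cells was smaller than the line gives for its WT score. CTC was 0.40 below it, the lowest of 61, and CTA (-0.21) and CTT (-0.15) were also below. The SD of the 55 other codons around the line was 0.158 for the means, 0.128 with replicate 1 and 0.240 with replicate 2. In 28 nt RPFs CTC was again the lowest, at -0.97, where the SD of the other codons was 0.216. TTG had -0.36, TTA -0.20, CTT -0.19 and CTG -0.13, and CTA had 0.12. The rises of CTT and TTA in eEF3d cells were thus smaller than the line gives for their WT scores, by less than that SD. Single libraries again differed at TTG (-0.51 and -0.21), TTA (-0.34 and -0.07) and CTA (0.04 and 0.19). CTC was the lowest of the 61 codons in 3 of the 4 eEF3d libraries taken singly and ranked 57 in replicate 2 with CHX + TIG.

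**Figure D4:**
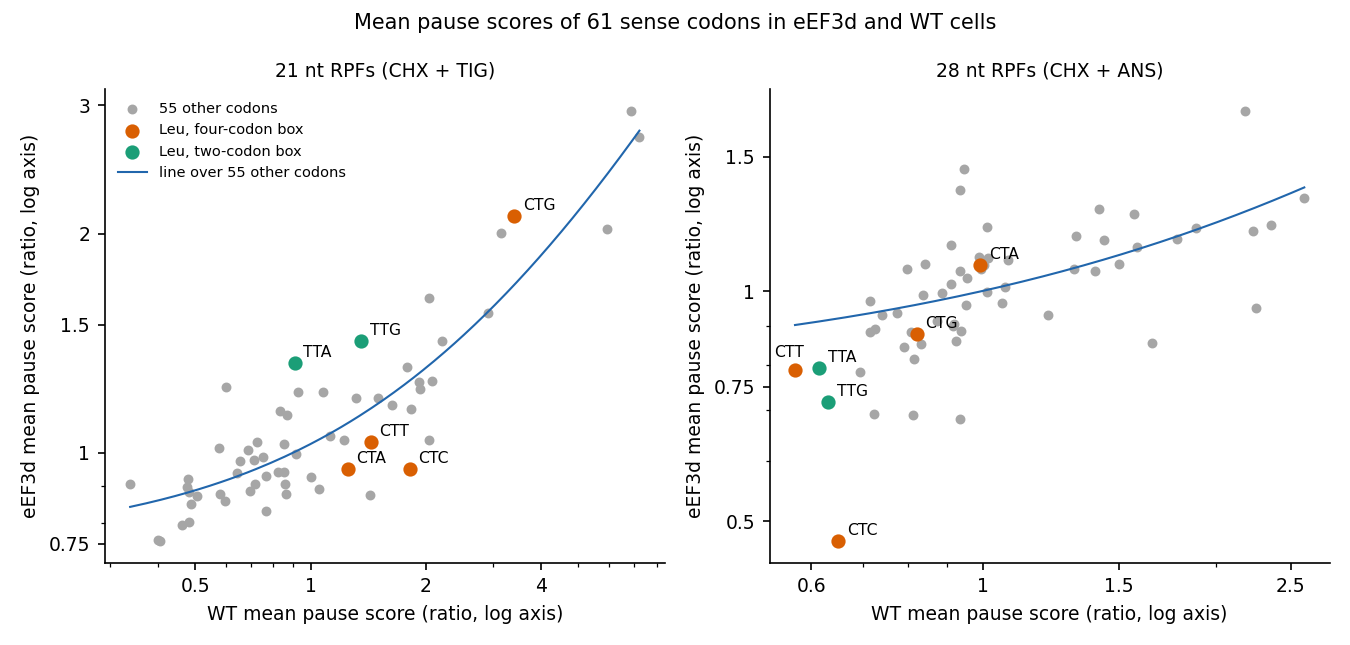
Mean pause score in eEF3d (vertical) against WT cells (horizontal) for the 61 codons in 21 nt RPFs (left) and 28 nt RPFs (right), both axes logarithmic, means of 2 replicates. The blue curve is the straight-line fit over the 55 other codons (gray), drawn on log axes, with the four-codon box in orange and the two-codon box in green. CTC lies 0.40 (left) and 0.97 (right) below it on the log2 scale.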

How the data were processed

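After adapter trimming and removal of ribosomal and other non-coding RNA, the authors mapped reads to the yeast genome (R64, sacCer3) with STAR after base calling with CASAVA 1.8, kept 1 footprint length per inhibitor pair and assigned reads to the A site. They deposited 1 table, whose values are the ratio of footprint density at a codon to that over the coding sequence without its ends, for 61 sense codons and 8 libraries, with no value of 0. The ratio compares codons within a library, and a shift of the whole library changes all of its codons. Depth is unknown from it, so no counting error is given. The labels and figure legends call the libraries biological samples or replicates. Columns were matched by strain, inhibitors and replicate number.

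Log2 ratios were fitted with limma 3.58.1 in R 4.3.3 over all 61 codons, per footprint class for the strain comparisons and over all 8 libraries for the class and interaction terms, with Benjamini-Hochberg adjustment. The procedure was tested on simulated data with log2 changes of 1. Over the comparisons it recovered 94.9% to 100% of these, and 3.01% to 4.21% of its calls were false. The simulated noise was normal and independent, with the same SD for every codon of a class. In the measured 28 nt RPFs the error differed between codons, so these rates are not shown to hold for the measured data. The changes between strains at leucine codons were smaller than a log2 change of 1, and the recovery of changes of their size was not tested. Box differences, codon ratios, spreads and lines were computed with Python 3.11.15, numpy 2.4.6 and pandas 2.3.3. Codon frequencies and tRNA genes come from a later RefSeq annotation of the R64 assembly, where 6 coding sequences were left out, and anticodons were read from the anticodon stem. All 6 leucine codons are named. Other codons are named as extremes of a group, neighbors in rank or members of fixed comparison lists. The members and lists were chosen with earlier results of these data known. Deviations of same-numbered libraries correlated at -0.166 in 21 nt and -0.033 in 28 nt RPFs, so the replicate numbers were not taken to pair the libraries. Alternatives were a replicate block, other scalings, a mean-variance trend, a pseudocount of 0.1, no moderation of variances, weights by class and leaving out each library. A block with crossed numbers was added after seeing the data. Footprint sizes were not analyzed here.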

Additional observations from a re-analysis of the deposited data

Results flagged for a closer look

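At 3 leucine codons the change in eEF3d cells differed between the footprint classes by a test of the difference itself, the interaction term in limma over all 61 codons, where 31 of the 61 codons (50.8%) were called, about the same share as of leucine codons. The change in 28 nt RPFs minus that in 21 nt RPFs was 0.93 for CTT (adjusted p = 0.00089), 0.81 for CTG (adjusted p = 0.0055) and 0.52 for CTA (adjusted p = 0.030) on the log2 scale. All 3 belong to the four-codon box. Over the alternatives the interaction term was 0.78 to 1.07 for CTT, 0.57 to 1.04 for CTG and 0.37 to 0.63 for CTA. Without moderation of variances in limma the calls of CTG (adjusted p = 0.073) and CTA (0.068) were lost. CTA was also not called with the replicate block (limma, adjusted p = 0.074) or with libraries divided by their mean (0.11). The classes also differ in inhibitor, and in 28 nt RPFs all WT libraries come from an earlier study, and the part of either in the difference was not tested.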

How the results depend on the processing

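The change of the leucine box difference between strains kept its sign under every alternative run. It was -1.003 to -0.85 in 21 nt and -0.30 to -0.13 in 28 nt RPFs. No alternative left out CTC alone, the only codon of the four-codon box with a negative change in 28 nt RPFs. Several alternatives cannot move the estimate of a codon, so its direction was fixed in advance in them. These are both replicate blocks, the mean-variance trend, no moderation and the weights by class. The class contrast of a strain also stays the same when a library of the other strain is left out. The tally below counts all of these, and fits that leave 1 library in a group. Over the 6 codons and 5 comparisons, 348 alternative values kept their direction and side of the threshold, 55 lost and 10 gained a call, and 7 changed sign. Those 7 were all of TTG, which was called in neither comparison concerned. Its change in 21 nt RPFs was -0.095 with libraries centered on their median, -0.18 without eEF3d replicate 2 and -0.08 without WT replicate 2, and between -0.18 and 0.29 when 1 library was left out. Its interaction term was -0.034 with libraries divided by their mean, -0.12 without eEF3d CHX + TIG replicate 1, -0.03 without WT CHX + TIG replicate 1 and -0.02 without eEF3d CHX + ANS replicate 2, and between -0.12 and 0.35 when 1 library was left out.

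Counts over 61 codons moved as follows. In 21 nt RPFs the 38 calls became 0 without moderation of variances in limma (17 at an unadjusted p under 0.05), and 0 to 32 when 1 library was left out. In 28 nt RPFs the 30 calls became 19 with the replicate block and 12 without moderation, and 28 to 33 when 1 library was left out. The 31 interaction calls became 13 without moderation and 20 to 36 when 1 library was left out. The 18 calls between classes in eEF3d cells became 11 with the replicate block and 9 without moderation, and 9 to 21 when 1 library was left out, and the 49 in WT cells ranged from 41 to 51. With the replicate block CTC and TTA were not called in 28 nt RPFs (adjusted p of 0.080 and 0.092), and CTT was not called in 21 nt RPFs (0.071). CTA was not called in the interaction (0.074) or between classes in WT cells (0.064), nor CTT between classes in eEF3d cells (0.084). With a mean-variance trend CTG in 21 nt RPFs (0.072) and CTC in 28 nt RPFs (0.056) were not called. With crossed numbers in the block the counts were 39 in 21 nt and 34 in 28 nt RPFs.

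With 2 libraries per group and no read numbers, the intervals rest on limma's pooled SD, and a leucine codon that did not pass the test is not shown to be equal between strains.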
